A study of Arabidopsis thaliana with 12 samples.

Results

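The nuclear genes for the subunits and electron carriers of the photosynthetic electron transport chain were compared between 4 Arabidopsis thaliana genotypes. They were chosen by gene ID as the nuclear members of photosystem I with its antenna LHCA1 to LHCA6, photosystem II, the cytochrome b6f complex, plastocyanin, ferredoxin, ferredoxin-NADP reductase (FNR), the plastid ATP synthase and cyclic electron flow. They number 43 of the 36917 gene IDs in the count tables, and all 43 were among the 15371 genes with enough counts to be tested. RNA was sequenced from whole seedlings 4 d old, with 3 libraries per genotype. The mutants were gun1 fug1, which carries gun1-103 and fug1-3 together, gun1 with gun1-103 alone and fug1 with fug1-3 alone, each a single insertion allele, and wild type was Col-0. All grew on plates of Murashige and Skoog medium with 1% sucrose, after 2 d of cold and darkness at 4 °C, then at 22 °C in days of 16 h light at 100 µmol m-2 s-1 and 8 h dark. Nothing in the labels says that the 3 libraries of a genotype came from separate cultures, so p-values measure the spread between these samples, which may be technical.

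In the thylakoid membrane, photosystem II takes electrons from water, the cytochrome b6f complex passes them to plastocyanin, and photosystem I lifts them to ferredoxin, from which FNR makes NADPH. The proton gradient built on the way drives the plastid ATP synthase, and cyclic electron flow returns electrons from ferredoxin to the chain. The complexes are mosaics: the nuclear genes described here supply subunits made in the cytosol and imported, which assemble with subunits encoded and translated in the plastid. GUN1, a plastid protein with pentatricopeptide repeats, acts in signalling to the nucleus, and FUG1 is a plastid translation initiation factor.

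Total counts were 8519197 to 12360838 per library, most of them in plastid-encoded genes. One library, gun1 fug1 3, stood apart: 5948 counts fell on the 43 genes in it, against 97726 to 341640 in the other 11 libraries, and its TMM scaling factor was 0.0723 against 0.80 to 2.05. Its total of 11535902 counts was not low, but its make-up differed. It had 23881 genes without a count, against 13359 to 16417 in the other 11 libraries. Plastid-encoded genes took 53.4% of its counts, against 68.5% to 84.4%. The 43 genes took 0.11% of its nuclear counts, against 4.63% to 8.95%. The main counts of called genes below are also given without it, as are some medians, summed ratios and fold changes of single genes. Where no such value is given, the gun1 fug1 fold change includes this library. Markers of other tissue moved with genotype. The summed level of 8 root genes, of which 7 passed the filter, was 28.8 to 60.8 CPM (counts scaled by TMM to a common library size) in gun1 fug1, 6.95 to 52.9 CPM in gun1, 21.3 to 36.3 CPM in fug1 and 1.53 to 5.69 CPM in wild type, with MYB36 at or near 0 in every library. The summed level of 6 seed storage and oil body genes, of which 4 passed, was 56.2 to 79.2 CPM in gun1 fug1, 37.3 to 77.8 CPM in gun1, 35.04 to 51.8 CPM in fug1 and 5.70 to 15.4 CPM in wild type, with CRU2 and SESA1 at or near 0. Of the tested root genes 7, 2 and 6, and of the seed genes 3, 3 and 4, were called higher in gun1 fug1, gun1 and fug1. Of all genes tested, 12%, 3.52% and 9.94% were called higher. With sums this low in wild type, the markers may have passed the filter only through the mutant libraries, so these counts are no support by themselves. The part of the markers in the results was not tested, and in RNA from whole seedlings fewer green cells and less RNA per green cell cannot be told apart.

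Of the 43 genes, 13 fell in gun1 fug1, 7 in gun1 and 8 in fug1 against wild type, and none was called higher in any of the 3. A gene was called at an adjusted p under 0.05 (edgeR's quasi-likelihood test with Benjamini-Hochberg adjustment over all 15371 genes). For gun1 fug1 the share called lower was 30.2% of the 43 genes, beside 9.88% of all genes tested. For gun1 it was 16.3%, beside 2.42%, and for fug1 18.6%, beside 7.88%. The shares of all genes called higher were 12%, 3.52% and 9.94%. The median log2 fold change of the 43 genes was -0.56 in gun1 fug1, -0.23 in gun1 and -0.06 in fug1, where the medians of all genes were -0.03, 0.02 and -0.00. The 3 comparisons share the wild-type libraries, so their values are given side by side and not as independent support for each other.

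The libraries of gun1 fug1 lay below all wild-type libraries for 29 of the 43 genes, beside 20.9% of all genes, and above them for none, beside 13.8%. The gun1 libraries lay below for 13 and above for none, beside 13.3% and 14.8%. The fug1 libraries lay below for 18 and above for 10, beside 19.7% and 21.1%. With gun1 fug1 3 left out, 15 genes were called lower in gun1 fug1, 11 in gun1 and 11 in fug1, beside 10.9%, 4.1% and 9.77% of the 16201 genes then tested, and 2 were called higher in fug1. Of all genes, 14.5%, 5.71% and 13.2% were then called higher. The other 2 gun1 fug1 libraries lay below all wild-type libraries for 32 genes, beside 28.1% of all genes, and above them for 7 (PSAF, PSAG, PSAH1, LHCA2, LHCA6, PSB28 and FD2), beside 28%. A fit of the compared groups alone ended the calls of PSAE2, PSAK and FNR2 in gun1 and of PSBR, PSBW, PETE2 and FNR1 in gun1 fug1. The gun1 count rested on single libraries, with 1 call left without wild type 1, gun1 2 or gun1 3, beside 0.589%, 0.513% and 0.405% of all genes called lower, and none without wild type 2, beside 0.334%. The deviations of gun1 and wild type met a rule for pairing by replicate number, which rests on the data and not on the labels. With the replicate number as a block FNR1 and ATPD were called lower in gun1 too, 9 genes in all. The share of all genes called in that fit is not given. Of the gun1 libraries, gun1 3 was the lowest for all 43 genes, and its root and seed sums were 52.9 and 77.8 CPM, against 6.95 and 37.3 CPM in gun1 1 and 20.3 and 50.9 CPM in gun1 2. Wild type 3, lowest for 31 genes, also had the highest sums of its genotype (5.69 and 15.4 CPM). In contrast, fug1 2 (lowest for 32) and gun1 fug1 3 (lowest for 31) had the lowest root sums of their genotypes, 21.3 and 28.8 CPM. Their seed sums, 51.8 and 79.2 CPM, were the highest. The relation was not tested. Scaled by library totals instead of TMM, the medians of all genes shifted to -1.17, -0.54 and -1.16 in gun1 fug1, gun1 and fug1, those of the 43 genes were -1.55, -0.79 and -1.22, and no member was called.

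**Figure D1:**
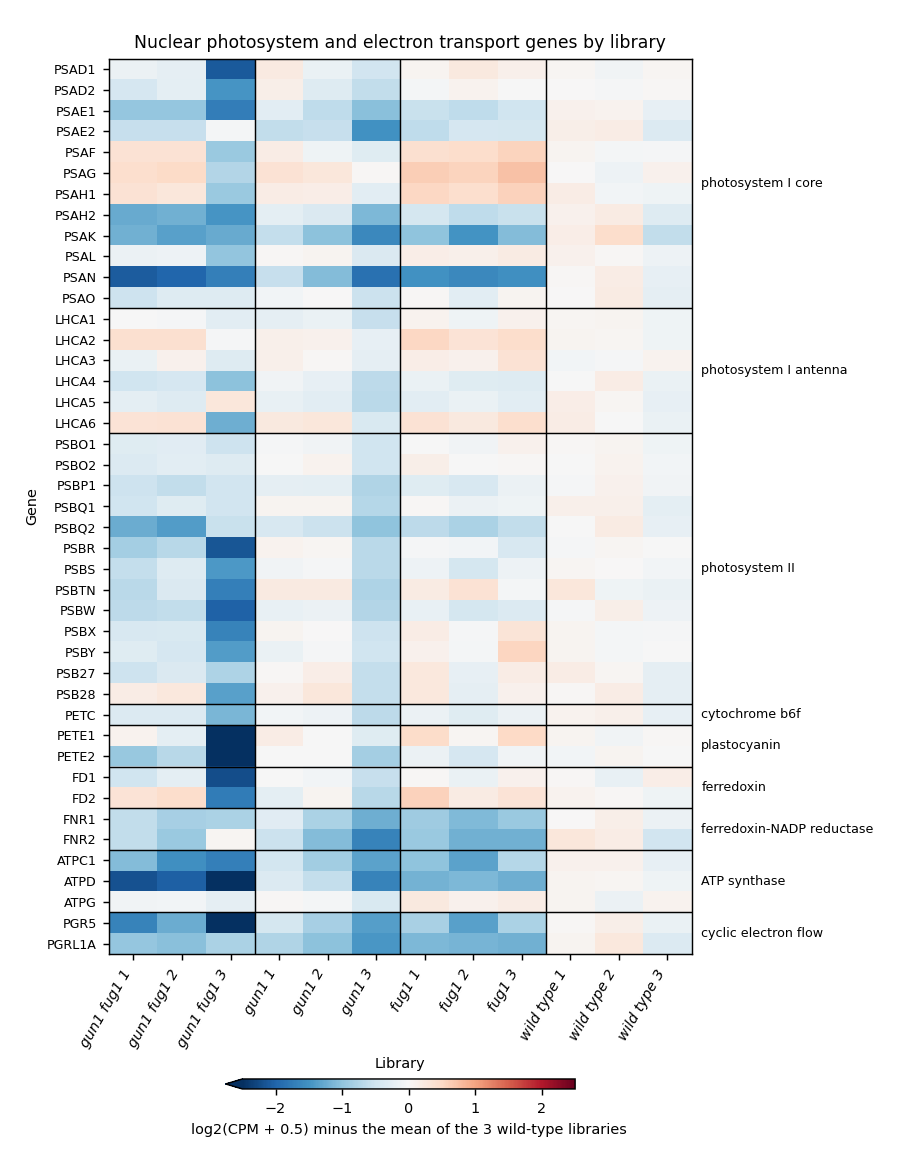
Heat map of the 43 genes (rows, grouped by complex) in the 12 libraries (columns), coloured by log2(CPM + 0.5) minus the mean of the 3 wild-type libraries, with colours saturating below -2.5. PSAN, PSAK, FNR1, ATPC1, ATPD, PGR5 and PGRL1A are blue across the mutants, the LHCA rows are pale, and gun1 fug1 3 and gun1 3 are darker than the other libraries of their genotypes in most rows.

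The DNA before the gene start was read for 4 genes whose window of 250 bases overlaps no other locus: PSBQ2, which fell in gun1 fug1, PSAK and PGRL1A, which fell in all 3 mutants, and LHCA4, which was called in none. They lie at chr4:2673244-2673493, minus strand (PSBQ2), chr1:10721933-10722182, plus strand (PSAK), chr4:12006736-12006985, plus strand (PGRL1A) and chr3:17495034-17495283, minus strand (LHCA4) of the TAIR10.1 assembly in NCBI RefSeq, and are written 5′ to 3′ on the strand of the gene. Capitals mark matches on either strand to the G-box CACGTG, the I-box core GATAAG and CCAATC, 3 motifs known from promoters of light-regulated plant genes.
PSBQ2: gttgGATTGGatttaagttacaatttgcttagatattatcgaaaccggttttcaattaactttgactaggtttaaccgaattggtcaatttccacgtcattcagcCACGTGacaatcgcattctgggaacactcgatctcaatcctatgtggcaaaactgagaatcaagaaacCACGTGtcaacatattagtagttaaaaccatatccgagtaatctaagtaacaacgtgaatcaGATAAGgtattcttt
PSAK: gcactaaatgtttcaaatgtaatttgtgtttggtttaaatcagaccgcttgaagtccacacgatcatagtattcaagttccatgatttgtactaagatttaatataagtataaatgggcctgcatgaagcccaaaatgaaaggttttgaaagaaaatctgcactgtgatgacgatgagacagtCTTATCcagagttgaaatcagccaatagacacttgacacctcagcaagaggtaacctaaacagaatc
PGRL1A: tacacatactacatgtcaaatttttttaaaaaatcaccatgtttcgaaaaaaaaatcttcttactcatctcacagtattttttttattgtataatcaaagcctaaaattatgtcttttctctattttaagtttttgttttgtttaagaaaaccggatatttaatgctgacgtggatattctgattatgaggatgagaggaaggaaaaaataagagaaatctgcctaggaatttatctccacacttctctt
LHCA4: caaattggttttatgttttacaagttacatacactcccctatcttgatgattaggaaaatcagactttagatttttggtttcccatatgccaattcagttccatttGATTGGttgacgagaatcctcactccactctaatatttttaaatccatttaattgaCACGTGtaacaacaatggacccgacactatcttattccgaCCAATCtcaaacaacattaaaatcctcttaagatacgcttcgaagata

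PSBQ2 holds 2 G-boxes, an I-box and a CCAATC match, PSAK an I-box, LHCA4 a G-box and CCAATC on each strand, and PGRL1A none of the 3. Over the 43 genes the G-box was found in 8 (18.6%), beside 6.49% of the 27443 promoter windows of the same length, the I-box in 10 (23.3%, beside 12.3%) and CCAATC in 8 (18.6%, beside 10.2%). The other 25 windows hold none of these letters. Of the 13 genes called lower in gun1 fug1, 3 hold a G-box, 5 an I-box and 3 CCAATC, and of the 30 not called, 5 hold each motif. These matches describe letters in the window and were not tested against the expression values.

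Levels per kb of exon differed widely between the genes in wild type. The highest were those of PSBR with 1123 ± 30.3 CPM per kb, LHCA4 with 991 ± 119 and LHCA1 with 799 ± 54.5 CPM per kb (SD, n = 3). The lowest were FNR2 with 13.6 ± 3.60, LHCA5 with 14.7 ± 1.91, PSB28 with 19.6 ± 2.73 and PGR5 with 20.2 ± 2.16 CPM per kb. The cyclic flow gene PGRL1A was at 33.9 ± 7.14 and the ATP synthase genes ATPC1 and ATPD at 118 ± 14.3 and 121 ± 8.21 CPM per kb. PSAN and PSAK stood between the highest and the lowest, at 253 ± 33.7 and 251 ± 86.9 CPM per kb.

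In the photosystem I core, 4 of 12 genes fell in gun1 fug1 (PSAE1, PSAH2, PSAK and PSAN), 3 in gun1 (PSAE2, PSAK and PSAN) and 2 in fug1 (PSAK and PSAN). PSAN (AT5G64040, chr5:25628521-25629708), a lumenal subunit on the side where plastocyanin docks, had 59.7, 64.1 and 78.0 CPM in gun1 fug1 and 171, 119.7 and 69.5 CPM in gun1. It had 88.8, 83.0 and 88.6 CPM in fug1 and 262, 289 and 221 CPM in wild type. All 9 mutant libraries lay below the 3 wild-type libraries. Its log2 fold change, given with its standard error, was -1.95 ± 0.28 in gun1 fug1 (adjusted p = 4.19e-05), -1.10 ± 0.27 in gun1 (adjusted p = 0.0171) and -1.57 ± 0.27 in fug1 (adjusted p = 0.000639). The gun1 call was lost without wild type 1, wild type 2, gun1 2 or gun1 3, with adjusted p up to 0.126.

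PSAK (AT1G30380, chr1:10722183-10723247), a membrane subunit at the antenna side of the core, had 79.5, 71.7 and 76.8 CPM in gun1 fug1 and 121, 90.7 and 59.6 CPM in gun1. It had 91.4, 65.5 and 86.5 CPM in fug1 and 208, 251 and 120.0 CPM in wild type. The gun1 fug1 and fug1 libraries lay below wild type, while gun1 1 overlapped wild type 3. It fell by 1.35 ± 0.28 in gun1 fug1 (adjusted p = 0.00172), by 1.09 ± 0.28 in gun1 (adjusted p = 0.0209) and by 1.25 ± 0.28 in fug1 (adjusted p = 0.00421) on the log2 scale. Its gun1 call was lost without the same 4 libraries as that of PSAN (adjusted p up to 0.18).

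PSAE1 (AT4G28750, chr4:14202758-14204061) and PSAE2 (AT2G20260, chr2:8736734-8737767) encode the E subunit of the stromal ridge, where ferredoxin docks. PSAE1 had 118, 119 and 69.6 CPM in gun1 fug1 and 193, 150.4 and 112 CPM in gun1. It had 157, 149 and 165 CPM in fug1 and 251, 249 and 202 CPM in wild type. All mutant libraries were below wild type, and the fold change passed the test in gun1 fug1 (log2 -1.18 ± 0.26, adjusted p = 0.00245), with -0.62 ± 0.25 in gun1 (adjusted p = 0.144) and -0.57 ± 0.25 in fug1 (adjusted p = 0.116). When gun1 fug1 3 was left out these were -0.98, -0.63 and -0.58, all called (adjusted p = 0.00211, 0.0349 and 0.0288). Reads of PSAE1 cannot be told apart from those of AT4G28755, which overlaps it and took 77.2% to 86.2% as many counts in every library. PSAE2 had 27.9, 27.9 and 40.8 CPM in gun1 fug1 and 27.2, 28.0 and 14.4 CPM in gun1. It had 26.9, 31.2 and 31.1 CPM in fug1 and 46.9, 48.0 and 33.2 CPM in wild type. It was low in all gun1 and fug1 libraries, while gun1 fug1 3 overlapped wild type. It fell in gun1 (log2 -0.88 ± 0.24, adjusted p = 0.0306), with -0.47 ± 0.25 in gun1 fug1 and -0.52 ± 0.24 in fug1, neither called, and the gun1 call was lost without the same 4 libraries (adjusted p up to 0.198).

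PSAH2 (AT1G52230, chr1:19454798-19455668), a copy of the H subunit at the docking site for light-harvesting complex II, had 65.8, 69.0 and 56.4 CPM in gun1 fug1 and 134, 124 and 72.1 CPM in gun1. It had 117, 102 and 108 CPM in fug1 and 170.1, 184 and 127 CPM in wild type. The gun1 fug1 and fug1 libraries lay below wild type and gun1 1 overlapped it, and the call was in gun1 fug1 alone (log2 -1.32 ± 0.25, adjusted p = 0.000737, with -0.55 ± 0.24 in gun1 and -0.56 ± 0.24 in fug1). When gun1 fug1 3 was dropped it was also called in fug1 (-0.56, adjusted p = 0.047). PSAG, a membrane subunit next to the antenna, had 498, 514 and 224 CPM in gun1 fug1 and 477, 453 and 376 CPM in gun1. It had 564, 545 and 614 CPM in fug1 and 372, 341 and 401 CPM in wild type. The fug1 libraries of PSAG lay above wild type, with a log2 fold change of 0.63 ± 0.28 that was not called (adjusted p = 0.122) and was called without gun1 fug1 3 (0.63, adjusted p = 0.0118), as was PSAH1, the other copy of the H subunit (0.50, adjusted p = 0.0355). On library totals both were negative, at -0.52 and -0.66, where the median of all genes itself shifted by -1.16, and reads of PSAG cannot be told apart from those of AT1G55673, which lies inside it, with 92.1% to 95.7% as many counts. With all 12 libraries PSAH1 was at 0.03, 0.04 and 0.51 in gun1 fug1, gun1 and fug1, none called. PSAD1, PSAD2, PSAF, PSAL and PSAO were called in no comparison with wild type, and ran from -0.59 (PSAD2) to 0.05 (PSAF) in gun1 fug1, -0.23 (PSAD2) to -0.07 (PSAF) in gun1 and -0.06 (PSAO) to 0.47 (PSAF) in fug1.

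None of the 6 LHCA genes, which encode the chlorophyll-binding antenna of photosystem I, was called in any mutant. LHCA3 (AT1G61520, chr1:22699715-22701412), the one with the highest mean CPM over the 12 libraries, had 946, 1135 and 845 CPM in gun1 fug1 and 1163, 1086 and 912 CPM in gun1. It had 1197, 1139.8 and 1354 CPM in fug1 and 1008, 1045 and 1132 CPM in wild type. The gun1 fug1 and gun1 libraries overlapped wild type and the fug1 libraries lay just above it. Its log2 fold changes were -0.12 ± 0.27, -0.01 ± 0.27 and 0.21 ± 0.27 in gun1 fug1, gun1 and fug1 (adjusted p = 0.778, 0.988 and 0.618). LHCA4, the partner of LHCA1 in an antenna dimer, had 904, 957 and 625 CPM in gun1 fug1 and 1205, 1113 and 816 CPM in gun1. It had 1133, 1030.0 and 1017 CPM in fug1 and 1265, 1445 and 1139 CPM in wild type. Its gun1 fug1 and fug1 libraries lay below wild type, with log2 fold changes of -0.63 ± 0.28 and -0.28 ± 0.28 that were not called (adjusted p = 0.11 and 0.524). LHCA1 was at -0.09, -0.31 and 0.03 in gun1 fug1, gun1 and fug1, and its gun1 libraries lay below wild type. LHCA2 was at 0.27, 0.02 and 0.43 in gun1 fug1, gun1 and fug1, and LHCA5 and LHCA6, which link photosystem I to the NADH dehydrogenase-like complex, at -0.21 and 0.12 in gun1 fug1. The 6 genes ran from -0.38 (LHCA5) to 0.07 (LHCA6) in gun1 and from -0.28 (LHCA4) to 0.43 (LHCA2) in fug1. The median of the 6 was -0.11 in gun1 fug1, and -0.02 without gun1 fug1 3.

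Of the 13 photosystem II genes, 3 fell in gun1 fug1 (PSBQ2, PSBR and PSBW) and none was called in gun1 or fug1. Their median log2 fold change was -0.62 in gun1 fug1 (-0.45 without gun1 fug1 3), -0.16 in gun1 and -0.00 in fug1, and the gun1 fug1 libraries lay below wild type for 12 of the 13. PSBQ2 (AT4G05180, chr4:2671523-2673243), a copy of an extrinsic protein of the water-oxidising site, had 81.5, 73.2 and 132 CPM in gun1 fug1 and 148, 134 and 96.6 CPM in gun1. It had 123, 112 and 127 CPM in fug1 and 193, 225 and 169 CPM in wild type. All mutant libraries were below the wild-type libraries. The log2 fold change was -1.06 ± 0.25 in gun1 fug1 (adjusted p = 0.00503), -0.63 ± 0.25 in gun1 (adjusted p = 0.131) and -0.70 ± 0.25 in fug1 (adjusted p = 0.0538). Without gun1 fug1 3 it was called in all 3 mutants, at -1.34, -0.64 and -0.70 (adjusted p = 9.31e-05, 0.0265 and 0.00785).

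PSBR (AT1G79040, chr1:29735952-29737009), a small subunit needed for stable binding of the extrinsic proteins, had 488, 542 and 200.3 CPM in gun1 fug1 and 929.8, 914 and 550.4 CPM in gun1. It had 860.3, 841 and 665 CPM in fug1 and 862, 907 and 872 CPM in wild type. All 3 gun1 fug1 libraries were low (log2 -1.10 ± 0.32, adjusted p = 0.0178), gun1 3 was low while gun1 1 and gun1 2 lay above wild type, and the fug1 libraries lay below it. PSBW (AT2G30570, chr2:13019028-13020311), a small subunit of the supercomplex with the antenna, had 272, 280.1 and 106 CPM in gun1 fug1 and 377, 392 and 259 CPM in gun1. It had 379, 317 and 342 CPM in fug1 and 421, 478 and 397 CPM in wild type. Its libraries in all 3 mutants lay below wild type, and the call was in gun1 fug1 (log2 -0.97 ± 0.30, adjusted p = 0.0239), with -0.34 ± 0.30 in gun1 and -0.32 ± 0.30 in fug1. Both were called without gun1 fug1 3 with smaller changes, -0.77 for PSBR and -0.65 for PSBW (adjusted p = 0.0165 and 0.0269). Leaving out wild type 2 ended both calls, and leaving out wild type 1 that of PSBW (adjusted p up to 0.0598 and 0.0873).

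PSBO1 (AT5G66570, chr5:26568572-26570461), the main copy of the protein that stabilises the manganese cluster, had 725, 742 and 626 CPM in gun1 fug1 and 880.3, 842 and 636 CPM in gun1. It had 893, 842 and 968 CPM in fug1 and 923, 942 and 838 CPM in wild type. The gun1 fug1 libraries lay below wild type and the others overlapped it, with log2 fold changes of -0.37 ± 0.26, -0.20 ± 0.26 and -0.00 ± 0.26 in gun1 fug1, gun1 and fug1, none called (adjusted p = 0.325, 0.702 and 1). PSBS, the sensor of lumen pH in energy dissipation, was at -0.69 ± 0.27 in gun1 fug1 (adjusted p = 0.0622), and PSBTN, a small nuclear-encoded subunit, at -0.79 ± 0.30 (adjusted p = 0.0621). The extrinsic proteins PSBO2, PSBP1 and PSBQ1 were at -0.31, -0.54 and -0.44, the small subunits PSBX and PSBY at -0.70 and -0.62, and the assembly factors PSB27 and PSB28 at -0.54 and 0.04. None of these 9 was called, except PSBP1 in gun1 fug1 without gun1 fug1 3 (-0.57, adjusted p = 0.0459). In gun1 the 13 genes ran from -0.63 (PSBQ2) to -0.04 (PSB28), and in fug1 from -0.70 (PSBQ2) to 0.22 (PSBY).

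Between the photosystems, the carrier plastocyanin fell in gun1 fug1 through its main copy. PETE2 (AT1G20340, chr1:7042046-7043392, DRT112 in RefSeq) had 373, 448 and 128 CPM in gun1 fug1 and 717, 719.5 and 405 CPM in gun1. It had 655, 545 and 684 CPM in fug1 and 696, 756 and 724 CPM in wild type. All gun1 fug1 and fug1 libraries were below wild type, and gun1 3 was low while gun1 1 and gun1 2 overlapped it. The log2 fold change was -1.19 ± 0.34 in gun1 fug1 (adjusted p = 0.0167), -0.24 ± 0.34 in gun1 and -0.21 ± 0.34 in fug1 (adjusted p = 0.723 and 0.71). It was -0.82 without gun1 fug1 3 (adjusted p = 0.0136), and the call was lost without wild type 2 (adjusted p = 0.055). PETE1, the minor copy, was at -0.37, -0.03 and 0.35, none called. The first value includes gun1 fug1 3, in which PETE1 has 4 counts. Its level there was 4.80 CPM, against 35.7 and 28.4 CPM in gun1 fug1 1 and gun1 fug1 2. PETC (AT4G03280, chr4:1440146-1441863), the Rieske iron-sulfur protein of cytochrome b6f and the only nuclear gene of that complex here, had 127, 127 and 73.2 CPM in gun1 fug1 and 154, 147 and 103 CPM in gun1. It had 145, 130.2 and 145 CPM in fug1 and 170.2, 177 and 139 CPM in wild type. Its gun1 fug1 libraries lay below wild type and the other mutants overlapped it, and -0.55 ± 0.25, -0.27 ± 0.25 and -0.21 ± 0.25 in gun1 fug1, gun1 and fug1 were not called (adjusted p = 0.112, 0.559 and 0.587). Without gun1 fug1 3 the gun1 fug1 value of PETC was -0.35.

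On the acceptor side of photosystem I, neither ferredoxin gene was called, while the FNR genes fell. FD2 (AT1G60950, chr1:22444307-22445291, FED A in RefSeq), the main leaf ferredoxin, had 298, 318 and 69.6 CPM in gun1 fug1 and 198, 245 and 145 CPM in gun1. It had 351, 269 and 297 CPM in fug1 and 249, 239.7 and 217 CPM in wild type. Its gun1 fug1 libraries lay on both sides of wild type, gun1 overlapped it and fug1 lay above it. Its log2 fold changes were -0.03 ± 0.37, -0.26 ± 0.37 and 0.38 ± 0.37 (adjusted p = 0.973, 0.728 and 0.516), and without gun1 fug1 3 the first was 0.39. FD1 was at -0.71, -0.21 and -0.01 in gun1 fug1, gun1 and fug1, none called. The first value includes gun1 fug1 3, in which FD1 has 18 counts. Its level there was 21.6 CPM, against 72.6 and 86.0 CPM in gun1 fug1 1 and gun1 fug1 2.

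FNR1 (AT5G66190, chr5:26450964-26453199), one of the leaf isoforms that pass electrons from ferredoxin to NADP, had 73.3, 63.1 and 64.8 CPM in gun1 fug1 and 92.6, 64.5 and 47.8 CPM in gun1. It had 60.3, 51.9 and 59.0 CPM in fug1 and 113, 124 and 102 CPM in wild type. All mutant libraries were below wild type. It fell in gun1 fug1 (log2 -0.75 ± 0.24, adjusted p = 0.0255) and fug1 (-0.98 ± 0.23, adjusted p = 0.00648), with -0.72 ± 0.23 in gun1 (adjusted p = 0.0636, and 0.0201 without gun1 fug1 3). With the replicate block the gun1 value of FNR1 was -0.76 and called (adjusted p = 0.0327). FNR2 (AT1G20020, chr1:6942625-6945091), the other leaf isoform, had 15.8, 12.6 and 25.2 CPM in gun1 fug1 and 16.5, 11.2 and 7.35 CPM in gun1. It had 12.5, 10.4 and 10.4 CPM in fug1 and 29.7, 27.8 and 17.4 CPM in wild type. The gun1 and fug1 libraries lay below wild type, and gun1 fug1 3 overlapped it. It fell in gun1 (log2 -1.09 ± 0.26, adjusted p = 0.0188) and fug1 (-1.18 ± 0.27, adjusted p = 0.00628), with -0.64 ± 0.28 in gun1 fug1 (adjusted p = 0.108). Without gun1 fug1 3, in which FNR2 has 21 counts, the last was -0.81 and called (adjusted p = 0.0446). The gun1 fug1 call of FNR1 was lost without wild type 1, wild type 2, gun1 fug1 1 or gun1 fug1 2 (adjusted p up to 0.105), and the gun1 call of FNR2 without wild type 1, wild type 2, gun1 2 or gun1 3 (up to 0.099).

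The plastid ATP synthase held the lowest fold change of the 43 genes. ATPD (AT4G09650, chr4:6100714-6101864), the delta subunit that ties the catalytic head to the stalk, had 30.4, 33.7 and 11.997 CPM in gun1 fug1 and 110.3, 91.7 and 43.3 CPM in gun1. It had 60.8, 63.6 and 59.5 CPM in fug1 and 147, 144 and 129 CPM in wild type. The groups do not overlap with wild type, the gun1 fug1 libraries lie below all others, and gun1 spans the widest range. The log2 fold change was -2.36 ± 0.32 in gun1 fug1 (adjusted p = 3.73e-05, -2.13 without gun1 fug1 3, in which ATPD has 10 counts), -1.19 ± 0.30 in fug1 (adjusted p = 0.0105) and -0.77 ± 0.30 in gun1 (adjusted p = 0.125, and 0.0372 without gun1 fug1 3). With the replicate block the gun1 value of ATPD was -0.86 and called (adjusted p = 0.0316). ATPC1 (AT4G04640, chr4:2350498-2352025), the gamma subunit that forms the rotating shaft, had 84.7, 61.7 and 54.0 CPM in gun1 fug1 and 131, 98.3 and 70.6 CPM in gun1. It had 88.4, 70.4 and 109 CPM in fug1 and 193, 192 and 155 CPM in wild type. All mutant libraries were below wild type, and ATPC1 was called in gun1 fug1 (log2 -1.41 ± 0.26, adjusted p = 0.000622), gun1 (-0.85 ± 0.26, adjusted p = 0.0488) and fug1 (-1.01 ± 0.26, adjusted p = 0.00976). The gun1 call of ATPC1 was lost without any one library other than wild type 3, gun1 1 or gun1 fug1 3 (adjusted p up to 0.278), and the fug1 call without wild type 2 or fug1 2 (up to 0.0733). The fug1 call of ATPD was lost without fug1 3 (adjusted p = 0.0529). The third gene, AT4G32260 (PDE334 in RefSeq), encodes a subunit of the membrane part, and had 129, 131 and 118 CPM in gun1 fug1 and 141, 133 and 105 CPM in gun1. It had 162, 147 and 156 CPM in fug1 and 143, 124 and 145 CPM in wild type. Its gun1 fug1 and gun1 libraries overlapped wild type and fug1 lay above it, with log2 fold changes of -0.12 ± 0.22, -0.12 ± 0.22 and 0.18 ± 0.22 in gun1 fug1, gun1 and fug1, none called (adjusted p = 0.723, 0.787 and 0.604).

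Among the 43 genes, those of cyclic electron flow around photosystem I are PGR5 and PGRL1A, and both fell in all 3 mutants. PGRL1B, PGR5-like B in RefSeq, is not among the 43. It was counted with the assembly and regulation factors, and its own values are not given here. PGR5 (AT2G05620, chr2:2080647-2081859), needed for the antimycin-sensitive route from ferredoxin to plastoquinone, had 6.75, 9.29 and 3.60 CPM in gun1 fug1 and 16.6, 12.6 and 8.496 CPM in gun1. It had 12.8, 8.57 and 12.9 CPM in fug1 and 23.1, 25.1 and 20.3 CPM in wild type. All 9 mutant libraries lay below wild type. Its log2 fold change was -1.60 ± 0.26 in gun1 fug1 (adjusted p = 0.00018), -0.86 ± 0.23 in gun1 (adjusted p = 0.0308) and -0.998 ± 0.24 in fug1 (adjusted p = 0.00667). The gun1 fug1 value includes gun1 fug1 3, in which PGR5 has 3 counts. Without that library the median of the 2 cyclic flow genes in gun1 fug1 was -1.28, against -1.30 with it. PGRL1A (AT4G22890, chr4:12006986-12009536), a membrane partner of PGR5, had 25.7, 24.1 and 28.8 CPM in gun1 fug1 and 29.9, 24.6 and 18.1 CPM in gun1. It had 23.0, 22.2 and 21.8 CPM in fug1 and 53.0, 61.1 and 39.7 CPM in wild type. Again no mutant library reached the lowest wild-type library. It fell in gun1 fug1 (log2 -0.99 ± 0.22, adjusted p = 0.00304), gun1 (-1.08 ± 0.21, adjusted p = 0.00396) and fug1 (-1.20 ± 0.22, adjusted p = 0.000947). The gun1 call of PGR5 was lost without wild type 1, wild type 2, gun1 2 or gun1 3 and under DESeq2 (adjusted p up to 0.192 over the libraries), its fug1 call without fug1 2 (0.0506), and the gun1 call of PGRL1A without wild type 2 (0.0554).

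**Figure D2:**
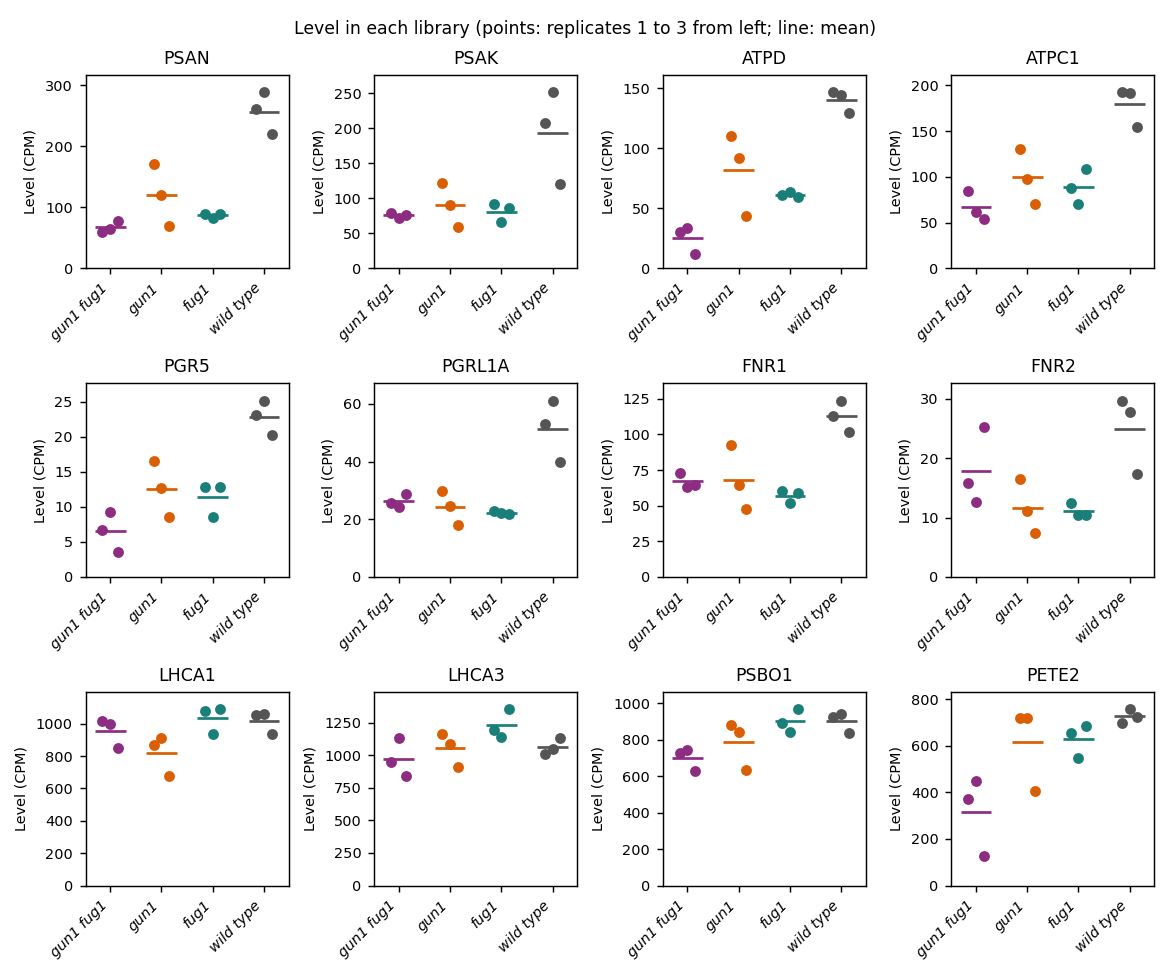
Level in CPM on linear axes from 0 for 12 genes in gun1 fug1, gun1, fug1 and wild type, with points for replicates 1 to 3 from left and a line at the mean. PSAN, ATPD, ATPC1, PGR5, PGRL1A and FNR1 lie below every wild-type library in all 3 mutants, those of LHCA3 overlap or exceed wild type in every mutant, and PETE2 is lowest in gun1 fug1.

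Summed over the genes of a complex, the level differed between the complexes and between the mutants, given here as means with no test (SD, n = 3 each). Photosystem II summed to 2937 ± 551 CPM in gun1 fug1, 3979 ± 867 CPM in gun1, 4356 ± 207 CPM in fug1 and 4639.7 ± 248 CPM in wild type, and the photosystem I antenna to 3491 ± 514 CPM in gun1 fug1, 3538 ± 529 CPM in gun1, 4148 ± 229.7 CPM in fug1 and 3978 ± 204 CPM in wild type. The ATP synthase genes summed to 218 ± 31.0 CPM in gun1 fug1, 308 ± 82.1 CPM in gun1, 306 ± 22.1 CPM in fug1 and 457 ± 26.6 CPM in wild type. FNR summed to 84.9 ± 7.95 CPM in gun1 fug1, 80.0 ± 27.2 CPM in gun1, 68.1 ± 5.36 CPM in fug1 and 138 ± 16.7 CPM in wild type, and cyclic electron flow to 32.8 ± 0.578 CPM in gun1 fug1, 36.8 ± 9.98 CPM in gun1, 33.7 ± 2.63 CPM in fug1 and 74.1 ± 13.2 CPM in wild type. The log2 ratio to wild type of the mean sums in gun1 fug1, gun1 and fug1 was -1.18, -1.01 and -1.14 for cyclic electron flow and -1.07, -0.57 and -0.58 for the ATP synthase. It was -0.66, -0.22 and -0.09 for photosystem II, -0.48, -0.24 and 0.01 for the photosystem I core and -0.19, -0.17 and 0.06 for the antenna. Without gun1 fug1 3 the gun1 fug1 ratios of the same complexes were -1.17, -0.96, -0.51, -0.26 and -0.07, and those of plastocyanin and ferredoxin were -0.78 and 0.20, against -1.16 and -0.23 with it. The ratios depend on the scaling. As shares of all nuclear counts they were -1.63, -0.51 and -0.47 for photosystem II in gun1 fug1, gun1 and fug1, -1.38, -0.53 and -0.37 for the photosystem I core and -1.19, -0.45 and -0.32 for the antenna, so the sign of the core and antenna in fug1 turned, as did that of ferredoxin (0.27 by TMM and -0.11 by nuclear counts). Without gun1 fug1 3 the gun1 fug1 ratios by nuclear counts were -1.06, -0.81 and -0.62 for photosystem II, the core and the antenna. As shares of library totals all 9 complexes were negative in every mutant, with the core at -1.15 and the antenna at -1.10 in fug1.

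**Figure D3:**
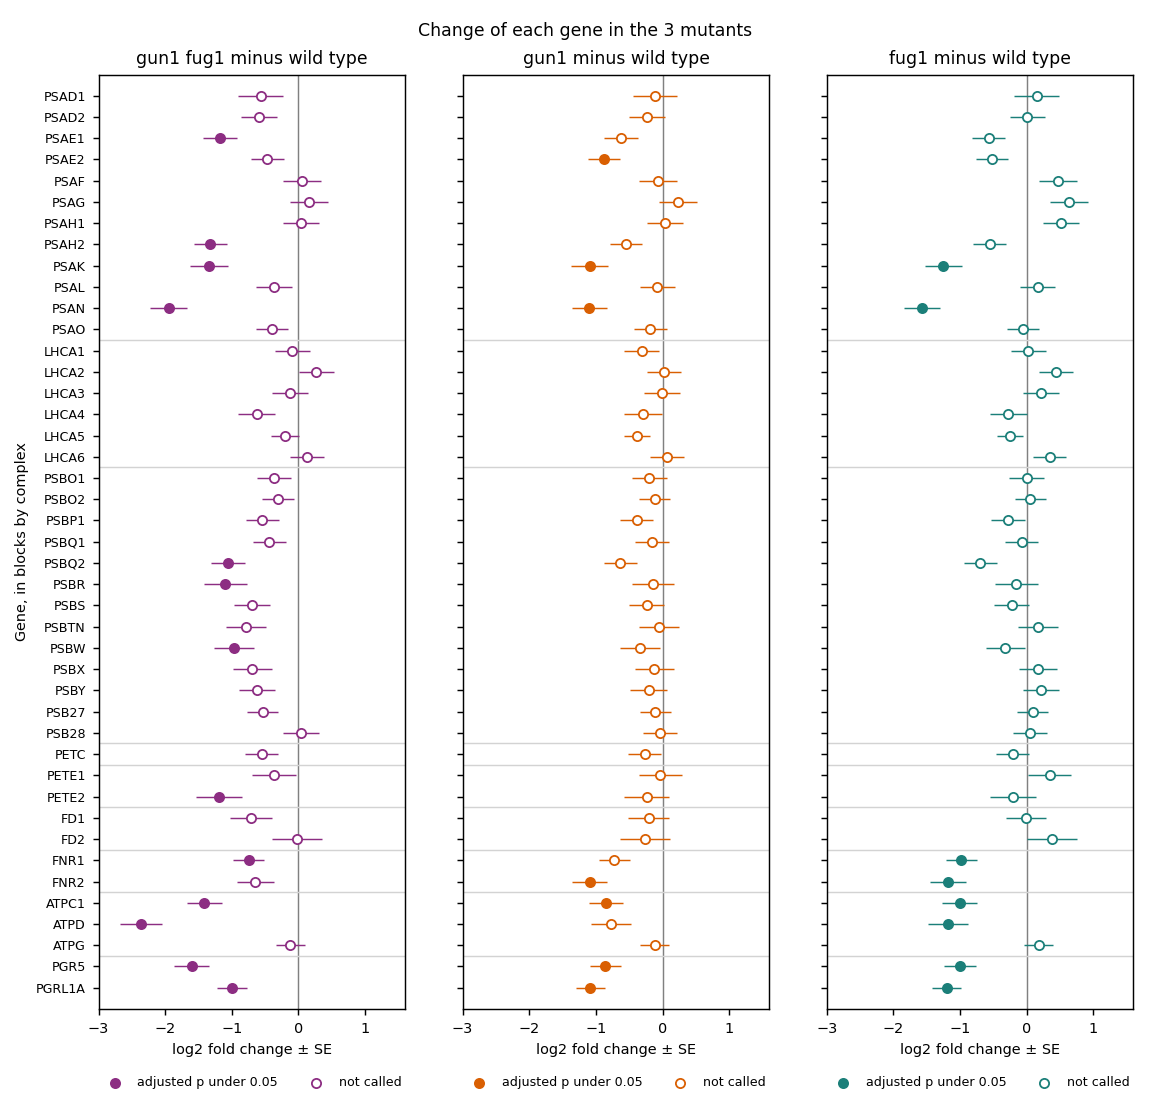
Log2 fold change against wild type with its standard error for each of the 43 genes, in blocks by complex, in gun1 fug1, gun1 and fug1, where filled points passed an adjusted p of 0.05 and open points did not. The filled points are 13, 7 and 8, all to the left of 0, ATPD in gun1 fug1 lies farthest left at -2.36, and the LHCA block holds open points only.

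The double mutant was also set against each single mutant. Against gun1, ATPD alone was called lower in gun1 fug1, with a log2 fold change of -1.59 ± 0.31 (adjusted p = 0.00827), beside 1.48% of all genes called lower and 1.61% higher. It was -1.34 without gun1 fug1 3 (adjusted p = 0.00746), where PSAN (-0.95, adjusted p = 0.0401) and PSBQ2 (-0.69, adjusted p = 0.0496) were called too, beside 2.09% of all genes lower and 2.97% higher. The call of ATPD was lost in a fit of the compared groups alone, and 4 members were called lower without gun1 3, beside 2.34% of all genes. Against fug1, edgeR's quasi-likelihood test called none of the 43, beside 0.104% of all genes lower and 0.163% higher. At an unadjusted p under 0.05 there were 15 in that comparison, all lower, beside 5.63% of all genes, and DESeq2 called 1 lower, beside 0.286%. Without gun1 fug1 3 none was called, beside 0.352% of all genes lower and 0.364% higher. The median log2 fold change of the 43 genes was -0.40 against fug1 and -0.28 against gun1, where those of all genes were -0.02 each, and -0.29 and -0.14 without gun1 fug1 3. The gun1 fug1 libraries lay below all fug1 libraries for 27 genes, beside 10.7% of all genes, and above them for 3, beside 7.28%. They lay below all gun1 libraries for 3, beside 13.3%, and above them for none, beside 8.42%. The gun1 fug1 libraries other than gun1 fug1 3 lay below all fug1 libraries for 28 genes and above them for 3, beside 15.3% and 16% of all genes, and below all gun1 libraries for 5 and above them for 7, beside 18.8% and 18.6%.

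Whether the mutations add on the log2 scale was tested as an interaction: what gun1-103 did in the fug1 background, less what it did in wild type. It was called for 2 of the 43 genes, both positive, beside 0.8% of all genes called positive and 0.54% negative. For FNR2 it was 1.62 ± 0.39 (adjusted p = 0.0429) and for PGRL1A 1.29 ± 0.31 (adjusted p = 0.0375). Against gun1 and fug1, gun1 fug1 was at 0.45 and 0.53 for FNR2 and at 0.09 and 0.21 for PGRL1A, none called. FNR2 lost its call without gun1 fug1 3 (1.48, adjusted p = 0.0501) and PGRL1A was still called (1.26, adjusted p = 0.0176), beside 1.57% of all genes called positive and 1.09% negative. Either call was also lost without any of wild type 1, wild type 2, gun1 2, gun1 3, gun1 fug1 1 or a fug1 library, and that of PGRL1A without gun1 fug1 2, with adjusted p up to 0.16 (FNR2) and 0.165 (PGRL1A). ATPD, the gene with the lowest fold change, had an interaction of -0.40 ± 0.42 (adjusted p = 0.644), and PSAN of 0.72 ± 0.38 (adjusted p = 0.308).

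Of the subunits and carriers, 8 come from a pair of duplicated genes, and the share of each pair's counts taken by the first copy was compared, which does not depend on the scaling of the libraries. The coding sequences of the copies are 75% to 88% identical, with identical runs of at most 17 to 35 bases, and how reads matching several genes were counted is not given in the sources used here. PSAH1, with PSAH2 the H subunit of photosystem I, took 71.8, 69.8 and 54.8% in gun1 fug1 and 52.4, 54.1 and 60.1% in gun1. It took 61.5, 63.0 and 64.5% in fug1 and 46.5, 40.3 and 48.5% in wild type. Every mutant library lay above the wild-type libraries, and gun1 fug1 3 was the lowest of its genotype. The means were 65.5% ± 9.29 in gun1 fug1, 55.6% ± 4.06 in gun1, 63.0% ± 1.48 in fug1 and 45.1% ± 4.27 in wild type (SD, n = 3 each), and each comparison with wild type had a 2-sided exact permutation p of 0.1, the smallest that 3 against 3 libraries can give. PSBQ1, with PSBQ2 an extrinsic protein of photosystem II, took 69.0, 74.0 and 58.3% in gun1 fug1 and 64.7, 66.8 and 61.9% in gun1. It took 68.2, 67.7 and 65.5% in fug1 and 59.2, 55.6 and 56.2% in wild type. The gun1 and fug1 libraries lay above wild type (exact p = 0.1 each), and gun1 fug1 3 overlapped it (exact p = 0.2). PSAH2 and PSBQ2, the second copies, were called lower in gun1 fug1, and PSAH1 and PSBQ1 were not.

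For PSBO1 and PSBO2 the share of PSBO1 was 74.7% ± 1.61 in gun1 fug1, 74.7% ± 1.30 in gun1, 74.9% ± 1.49 in fug1 and 75.6% ± 0.633 in wild type, overlapping in every mutant. PSAD1 took 63.5% ± 7.61 in gun1 fug1, 67.3% ± 0.680 in gun1, 67.5% ± 0.321 in fug1 and 65.3% ± 0.884 in wild type. FNR1 took 79.2% ± 6.26 in gun1 fug1, 85.6% ± 0.946 in gun1, 83.8% ± 1.16 in fug1 and 82.1% ± 3.13 in wild type. PETE1, the minor plastocyanin copy, took 6.10% ± 2.57 in gun1 fug1, 5.26% ± 0.943 in gun1, 6.36% ± 0.335 in fug1 and 4.45% ± 0.434 in wild type. The gun1 and fug1 libraries lay above wild type for PSAD1. PSAE1 took 74.98% ± 10.3 in gun1 fug1, 86.9% ± 2.27 in gun1, 84.1% ± 1.36 in fug1 and 84.7% ± 1.09 in wild type, with all gun1 fug1 libraries below wild type. FD1 took 21.5% ± 2.06 in gun1 fug1, 31.4% ± 2.63 in gun1, 25.1% ± 2.02 in fug1 and 30.4% ± 3.65 in wild type, with the gun1 fug1 and fug1 libraries below it. Over the 8 pairs the first copy's share lay above wild type in 1 pair in gun1 fug1, 3 in gun1 and 4 in fug1, below it in 2, 0 and 1, and overlapped it in 5, 5 and 3. Without gun1 fug1 3, in which the pairs of PSAD, PSAE and FNR have 89, 92 and 75 counts, it lay above wild type in gun1 fug1 for 3 pairs (PSAH1, PSBQ1 and PETE1), below it for 2 and overlapped it for 3. The difference of the mean share in gun1 fug1 from wild type was then 2.42 points for PSAD1, against -1.82 with that library, 0.727 for FNR1, against -2.88, 0.0513 for PSBO1, against -0.865, and -3.72 for PSAE1, against -9.68. These are 24 comparisons at a smallest p of 0.1, so none can pass 0.05 in this design.

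**Figure D4:**
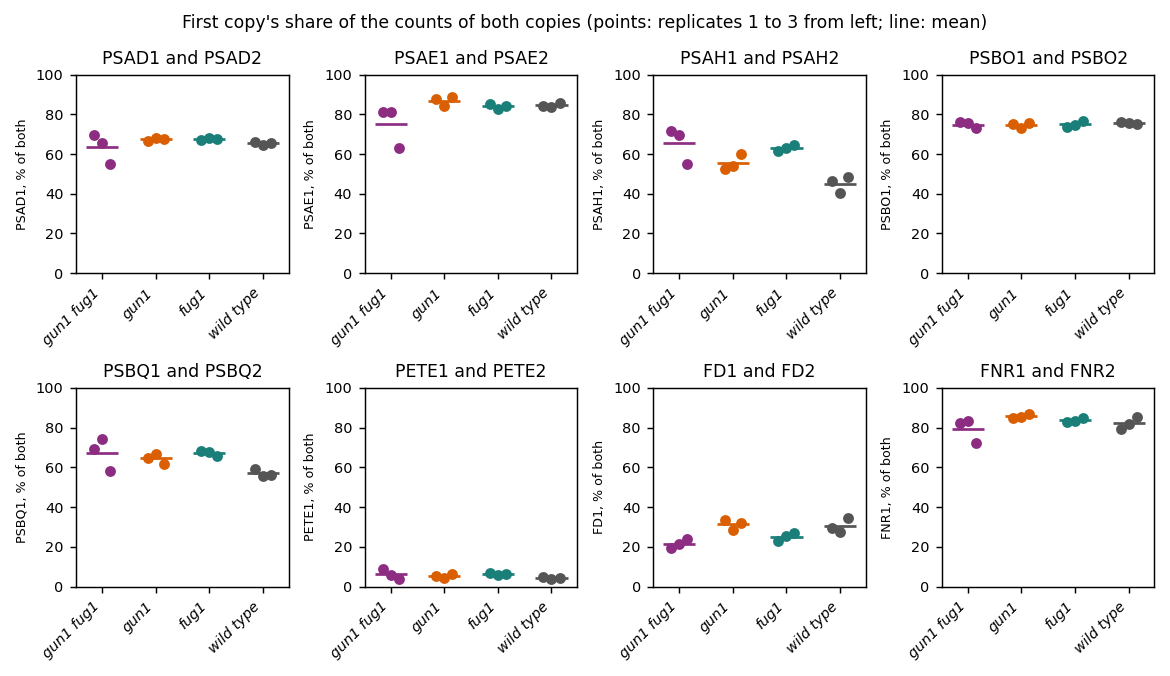
Share of the counts of both copies taken by the first copy, in percent, for 8 gene pairs in gun1 fug1, gun1, fug1 and wild type, with points for replicates 1 to 3 from left and a line at the mean. The PSAH1 share is above the wild-type points in all mutant libraries, the PSBO1 share is level at 74.7% to 75.6% over the 4 genotype means, and the PSAE1 share is below wild type in gun1 fug1.

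Some of the factors that assemble or regulate these complexes also fell. Of 28 genes in that list, all tested, 8 were called lower and 1 higher in gun1 fug1, 5 lower in gun1 and 6 lower in fug1. Of all genes tested, 9.88%, 2.42% and 7.88% were called lower and 12%, 3.52% and 9.94% higher. The median log2 fold changes of the list were -0.20, -0.57 and -0.40, beside -0.03, 0.02 and -0.00 for all genes. Values of this list include gun1 fug1 3. HCF136, an assembly factor of the photosystem II reaction centre, had 20.9, 22.7 and 30.0 CPM in gun1 fug1 and 42.4, 30.6 and 19.5 CPM in gun1. It had 28.1, 26.1 and 31.2 CPM in fug1 and 56.4, 60.2 and 46.3 CPM in wild type. All mutant libraries were below wild type (log2 -1.21 ± 0.25, -0.82 ± 0.23 and -0.93 ± 0.24 in gun1 fug1, gun1 and fug1, adjusted p = 0.00155, 0.04 and 0.00965). CCB1, needed to attach a heme of cytochrome b6, was at -1.21 ± 0.25, -0.82 ± 0.22 and -1.12 ± 0.23, and PPL1, a PsbP-like protein of photosystem II repair, at -0.95 ± 0.24, -0.76 ± 0.21 and -0.96 ± 0.22, called in all 3. PSA2, a photosystem I assembly factor, was called in all 3 as well, at -0.98 ± 0.25, -0.95 ± 0.22 and -0.88 ± 0.23. THF1 (PSB29 in RefSeq), a thylakoid formation factor, fell in gun1 fug1 (-1.03 ± 0.23, adjusted p = 0.00259). The gene called higher in gun1 fug1 was STN8, a thylakoid kinase of photosystem II proteins (0.68 ± 0.20, adjusted p = 0.017).

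In the ferredoxin chain of non-photosynthetic plastids the ferredoxin gene was called higher, while the photosynthetic FD1 and FD2 were called in no mutant. FD3, a root-type ferredoxin, had 5.99, 4.83 and 1.20 CPM in gun1 fug1 and 3.37, 8.15 and 7.35 CPM in gun1. It had 5.84, 4.64 and 5.42 CPM in fug1 and 1.90, 2.43 and 1.95 CPM in wild type. All mutant libraries but gun1 fug1 3, which lay below, were above wild type. The scaled size of gun1 fug1 3, 833572 counts, leaves its level near the floor, and the FD3 fold changes include it. FD3 was called higher in gun1 fug1 (log2 1.27 ± 0.32), gun1 (1.58 ± 0.30) and fug1 (1.34 ± 0.31, adjusted p = 0.00708, 0.00286 and 0.00557). The root-type reductases RFNR1 and RFNR2 were called in none, at 0.56 and 0.21 in gun1 fug1. The median of the 3 genes, with FD3 included, was 0.56 in gun1 fug1, 0.945 in gun1 and 0.786 in fug1. The root and seed marker sums given above were higher in the same mutants, and their part in this difference was not tested.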

How the data were processed

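The authors deposited 1 table of raw counts per library: whole-number counts of reads per gene, not normalised. Per the submitters' processing notes, reads were handled with Trimmomatic, FastQC, TopHat2 2.1.1, featureCounts and the TAIR10 genome. The strandedness and the treatment of reads in overlapping or repeated genes are not given in the sources used here. The labels gave the genotypes, and the titles the replicate numbers. For gun1 fug1, the numbers in the names of the deposited files are 1 above those in the titles. The titles were used, and the replicate block and its check depend on that choice. Gene names, positions and promoter windows came from the TAIR10.1 assembly and its RefSeq annotation, which holds all 43 genes.

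In R 4.3.3, edgeR 4.0.16 was run with filterByExpr, TMM scaling, and a quasi-likelihood F test from 1 robust fit of all 12 libraries with genotype as the factor. p-values were adjusted by Benjamini-Hochberg over all genes tested, and a gene was called at an adjusted p under 0.05. Levels are CPM on TMM-scaled library sizes, and log2 fold changes are the fitted values of edgeR with its default prior count, with standard errors taken from the F statistic. Shares within gene pairs were compared by exact permutation. The procedure was run on simulated counts drawn from the wild-type profile, with changes set in gun1 alone. The outcome is not given here, and the simulation does not cover a library of differing make-up such as gun1 fug1 3. Alternatives were RLE factors, library totals, organelle genes left out, DESeq2 1.42.0, no filter, a replicate block, fits of the compared groups alone, and each library left out in turn. A further pair, library totals or organelle genes left out together with dropping gun1 fug1 3, was chosen after seeing the data.

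Replicate numbers were taken to pair 2 genotypes where the deviations of all 3 same-numbered pairs correlated above 0.1. That held for gun1 and wild type (0.491, 0.105 and 0.524) and for no other 2 genotypes, and it rests on the data, since the labels state no pairing. Wild type 2 correlated more with gun1 1 (0.218) than with gun1 2, and 5 of the 36 pairs with other numbers also passed 0.1. The 3 deviations of a genotype sum to 0, so these correlations are not independent, and the pairing stays uncertain.

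Named with all library values are the called members of each comparison and the most abundant member of each complex with none called. Of the further lists, HCF136 and FD3 have all library values. CCB1, PPL1, PSA2, THF1 and STN8 have fold changes only, and the root and seed genes are given as sums. LHCA4, PSAG and PDE334 were added after their values were seen. The members and lists were chosen with earlier results of these data known. Plastid-encoded subunits were not analysed here. Counting error is largest in gun1 fug1 3, where single members rest on 3 to 709 counts although its total is not low.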

Additional observations from a re-analysis of the deposited data

Results flagged for a closer look

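A pair of genes differed in what the gun1 mutation did with and without the fug1 mutation, by the interaction test of edgeR's quasi-likelihood fit. For FNR2 the gun1 fug1 minus fug1 difference exceeded the gun1 minus wild type difference by 1.62 on the log2 scale, and for PGRL1A by 1.29. Both values and the libraries without which they lost their calls are given in the report.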

How the results depend on the processing

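No value called with all 12 libraries and TMM scaling changed sign under any alternative. PSAG and PSAH1 in fug1, called higher without gun1 fug1 3 (0.63 and 0.50), were negative on library totals (-0.52 and -0.66). Scaled by library totals, the test called no member lower in gun1 fug1, gun1 or fug1 against wild type or against gun1 (0 each), and 0 for the interaction. With library totals and gun1 fug1 3 left out, chosen after seeing the data, 36, 42 and 43 were called lower in gun1 fug1, gun1 and fug1, 4 higher in gun1 fug1 against fug1, and 39 for the interaction, where the medians of all genes were -0.62, -0.54, -1.16, 0.56 and 1.05. With organelle genes and gun1 fug1 3 left out, also chosen after seeing the data, gun1 had 11 lower, gun1 fug1 against gun1 3 lower, and fug1 3 higher. With only the compared groups in the fit, gun1 had 4 lower, gun1 fug1 against gun1 0, and fug1 3 higher. With no filter, gun1 fug1 had 4 lower against gun1 and 1 against fug1, and DESeq2 called 1 in the last. For most settings in this section the share of all genes called is not given. Their counts therefore do not show whether the members differ from all genes. The causes were not tested. Leaving out each library in turn gave 0 to 11 lower in gun1, 1 to 4 in gun1 fug1 against gun1, 0 to 1 against fug1, 0 to 2 higher in fug1 and 0 to 3 for the interaction.

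Only gun1 and wild type met the rule for pairing by replicate number, which does not show that they were paired. The other 15 same-numbered pairs had correlations of deviations from -0.138 to 0.231. With the replicate block, 17, 9 and 9 members were called lower in gun1 fug1, gun1 and fug1, 3 in gun1 fug1 against gun1 and 2 against fug1. The shares of all genes called with the block are not given, so these counts cannot be set against all genes. In gun1 the block added FNR1 and ATPD and changed no other call of a member. The fug1 count and the gun1 fug1 count against wild type stayed within 1.5 times of 8 and 13 in every leave-one-out fit. Few counts on the members, in a library whose total is not low but whose make-up differs, limit gun1 fug1 3.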
